A study of Homo sapiens with 12 samples.

Results

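Among the 28395 genes counted in 4 lines of HCT116 colorectal cancer cells, 10 genes that are widely used as readouts of NF-kB activity are described here, namely the chemokines CXCL1, CXCL2, CXCL3, CXCL8 and CCL20, the feedback inhibitors NFKBIA and TNFAIP3, the survival factor BIRC3, the adhesion molecule ICAM1 and the NF-kB subunit RELB. They were chosen by name from knowledge of the pathway, with earlier results of these data known, so counts over them are not independent of these data. They were found by their symbols in the table of raw counts. Each of the 10 symbols had 1 row, and all 10 genes were among the 15853 that passed the filter on low counts.

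NF-kB is a family of dimeric transcription factors that rests in the cytoplasm, bound by IkB proteins, until receptors for bacterial products, TNF or IL-1 activate the IKK kinases, which mark the IkB protein for destruction. The freed dimers bind short kB sites in DNA and switch on chemokines that draw neutrophils and dendritic cells, adhesion molecules that hold them, and inhibitors that end the signal. In the intestinal lining, epithelial cells use this programme to report injury and microbes, and many colorectal cancers carry it in a raised state.

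The cells were HCT116, a human colorectal cancer cell line that grows as poorly differentiated tumours, and all 4 lines were kept in the same medium with serum, without any added inflammatory stimulus stated. HCT116 EV cells carried the empty pcDNA vector, HCT116 EHF cells a pcDNA plasmid for EHF, a transcription factor of the ETS family, and both were selected with geneticin as resistant clones, whose number is not given in the sources used here. HCT116 CDX1 cells carried a retrovirus for CDX1, a homeobox factor of the intestine, together with GFP, and were sorted for GFP. HCT116 EHF+CDX1 cells were CDX1 cells that were afterwards given the EHF plasmid and selected with geneticin in the same way. Hence the vehicle and the selection differed between the lines as well as the factor, and the CDX1 cells lacked the geneticin selection of the EV cells. Each line was represented by 3 libraries of polyadenylated RNA, 12 in all, and the labels do not say whether these were separate cultures or clones. The study describes fewer biological replicates than the libraries deposited, without saying what was repeated, so the p-values measure the spread between these libraries, which may be technical. The study asked how EHF and CDX1, alone and together, change the expression programme of poorly differentiated colorectal cancer cells.

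EHF averaged 299 ± 54.4 CPM (counts per 1e6 counts, scaled by TMM, with SD, n = 3) in EV, 19312 ± 305 in EHF, 12.3 ± 0.603 in CDX1 and 18708 ± 1433 in EHF+CDX1 cells. CDX1 cells thus held less EHF than EV cells, and the part of this in their differences from EV cells was not tested. CDX1 averaged 525 ± 35.8 CPM in CDX1 and 5419 ± 277 in EHF+CDX1 cells, with at most 1 read in an EV library and at most 4 in an EHF library. The libraries held between 13523007 and 74186741 counts. EV replicate 3 stood apart from its group. The chi-square per degree of freedom of its gene counts was 317 against EV replicate 1 and 288 against EV replicate 2, compared with 4.28 between those replicates. Between CDX1 libraries it was 19.2 to 45.7, and between libraries within EHF or within EHF+CDX1 cells 3.14 to 7.39. Counts over the 10 genes are given with and without EV replicate 3. Their values are given both ways where that library changed a call or moved a called fold by over 1.5 times. All 6 epithelial markers listed were expressed in every library, with a summed level of 2737 to 3280 CPM in CDX1 cells and of 4450 to 5597 CPM in the other lines. The leukocyte markers PTPRC, CD3E and MS4A1 reached at most 6, 3 and 0 reads in any library, while the summed level of all 8 leukocyte markers listed, carried by CD68 and ITGAM, lay at 2.98 to 13.4 CPM in EV, 40.9 to 42.9 in EHF, 91.2 to 100.2 in CDX1 and 37.4 to 44.5 in EHF+CDX1 cells. The 6 fibroblast markers listed, carried by COL1A1, summed to 168 to 220 CPM in CDX1 cells and to 34.5 to 76.7 CPM in the other lines. The part of these marker levels in the results on the 10 genes was not tested.

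The promoters of these genes are shown first, as the sequence on which NF-kB would act. RefSeq promoters (GRCh38.p14) were at hand for 9 of them, all but RELB. The 250 bases before the start were searched on both strands for the NF-kB consensus, for GGAANTTCC, which can overlap it, for the ETS core GGAAGT and for the caudal-type sequence TTTATNG. A match to the NF-kB consensus lay in 7 of the 9 and one to GGAANTTCC in 6 of the 9, against 5.21% and 0.826% of all 35116 promoters of the same length, and each of the 9 held at least 1 of the pair, against 5.8% of all promoters. As the genes were chosen as known NF-kB targets, these matches describe the choice. The 120 bases that end 1 base before the start are shown for the neutrophil chemokines, for CCL20 and for the feedback inhibitors, because these genes took up different patterns over the 4 lines. They are written 5′ to 3′ on the strand of the gene, and capitals mark matches to the NF-kB consensus or GGAANTTCC.
CXCL1, chr4:73869273-73869392, plus strand: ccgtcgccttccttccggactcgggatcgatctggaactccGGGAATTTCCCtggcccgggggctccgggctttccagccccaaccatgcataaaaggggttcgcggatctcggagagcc
CXCL2, chr4:74099196-74099315, minus strand: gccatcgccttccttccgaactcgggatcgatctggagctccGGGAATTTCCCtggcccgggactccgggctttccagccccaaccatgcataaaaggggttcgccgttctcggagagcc
CXCL3, chr4:74038690-74038809, minus strand: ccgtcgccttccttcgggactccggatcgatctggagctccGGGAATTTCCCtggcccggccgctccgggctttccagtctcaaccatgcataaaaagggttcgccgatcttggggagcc
CXCL8, chr4:73740449-73740568, plus strand: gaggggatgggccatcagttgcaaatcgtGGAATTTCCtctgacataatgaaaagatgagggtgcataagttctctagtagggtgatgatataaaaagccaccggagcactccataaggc
CCL20, chr2:227813722-227813841, plus strand: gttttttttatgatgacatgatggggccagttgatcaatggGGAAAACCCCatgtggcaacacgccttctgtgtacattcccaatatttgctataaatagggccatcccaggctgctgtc
NFKBIA, chr14:35404750-35404869, minus strand: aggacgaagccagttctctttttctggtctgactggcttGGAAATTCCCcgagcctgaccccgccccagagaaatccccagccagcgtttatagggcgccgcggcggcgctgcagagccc
TNFAIP3, chr6:137867139-137867258, plus strand: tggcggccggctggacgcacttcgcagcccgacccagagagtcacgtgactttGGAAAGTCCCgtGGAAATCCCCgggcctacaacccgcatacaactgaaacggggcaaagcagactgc

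CXCL1, CXCL2 and CXCL3 carried the same 11 capital letters at almost the same distance, 79 to 69 bases before the start in CXCL1 and CXCL3 and 78 to 68 in CXCL2, and 109 of 120 bases (90.8%) were identical between CXCL1 and CXCL3 in an alignment without gaps. CXCL8 held GGAANTTCC at 91 to 83 bases before its start, without a match to the longer consensus. TNFAIP3, whose listed start lies inside the span of its gene, held 2 consensus matches, at 67 to 58 and 55 to 46 bases. BIRC3 held 2, at 199 to 190 and 135 to 126 bases, and ICAM1 held GGAANTTCC at 186 to 178 bases. GGAAGT was found in 3 of the 9 promoters (CXCL8, CCL20 and BIRC3; 33.3%, against 19.5% of all promoters) and TTTATNG in 3 (CCL20, NFKBIA and ICAM1; 33.3%, against 8.93%). The TTTATNG matches all lay close to the start. They read CTATAAA at 30 to 24 bases before it in CCL20 and at 31 to 25 in ICAM1, and TTTATAG at 33 to 27 in NFKBIA. Whether they are sites for caudal-type factors or belong to the core promoter was not tested. All the matches given here are of letters in a short window and not measured binding sites.

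The 10 genes did not respond as 1 block, and the plot of their levels by library shows 3 shapes. CXCL1, CXCL3, NFKBIA, TNFAIP3, BIRC3, ICAM1 and RELB were highest in CDX1 cells and rose there against EV cells, by between 2.07-fold for NFKBIA and 14.3-fold for CXCL3. Of all tested genes, 21.3% rose in CDX1 against EV cells. CXCL8 was highest in EHF and EHF+CDX1 cells, and CCL20 in EHF+CDX1 cells. In EHF+CDX1 against CDX1 cells, 6 of the 10 fell, against 18.7% of all tested genes, although both comparisons share the CDX1 libraries. CXCL2 was low in all 4 lines and passed no test while EV replicate 3 was included.

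**Figure D1:**
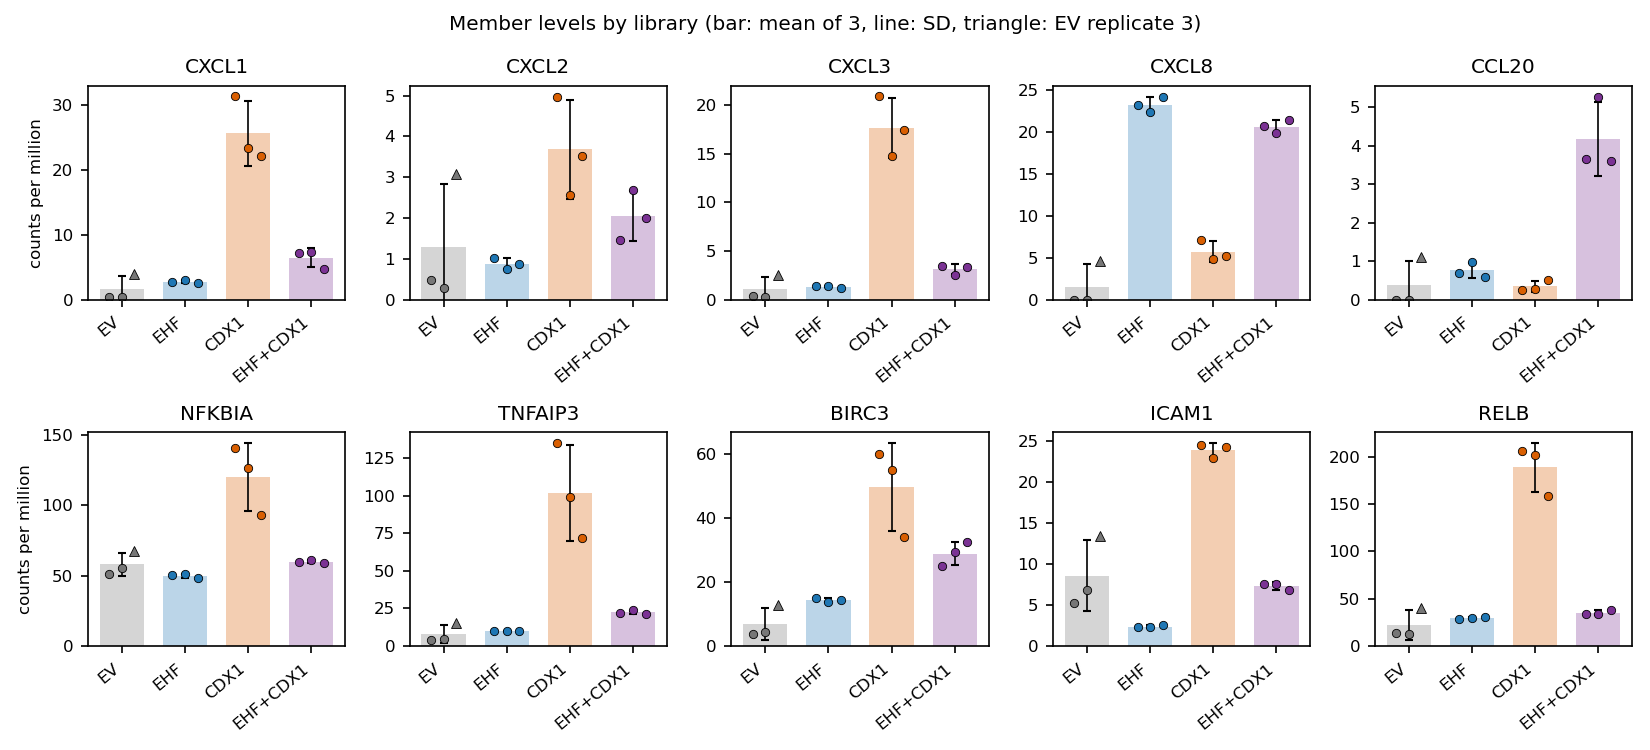
Levels of the 10 genes in CPM (vertical axes, from 0, a separate scale for each gene) in the 3 libraries of each of the 4 lines. Bars are means, vertical lines the SD and points single libraries, with EV replicate 3 as a triangle. It is the highest EV library in all 10 panels.

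Genes were called by edgeR's quasi-likelihood test against a change of 1.5-fold where the p adjusted over all 15853 genes by Benjamini-Hochberg was under 0.05, and every adjusted p below is from this test. Log2 fold changes are from the same fit, each with its standard error (SE). An exact permutation test of 3 against 3 libraries cannot give a two-sided p below 0.1 and was not used.

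CXCL1, CXCL2 and CXCL3, neighbours on chromosome 4, encode ligands of the receptor CXCR2 that attract neutrophils. CXCL1 (chr4:73869393-73871308) was at 0.388, 0.379 and 3.93 CPM in EV, 2.77, 2.96 and 2.54 in EHF, 31.4, 23.4 and 22.2 in CDX1 and 7.21, 7.38 and 4.77 in EHF+CDX1 libraries. CXCL3 (chr4:74036589-74038689) read 0.345, 0.284 and 2.54 CPM in EV, 1.38, 1.37 and 1.22 in EHF, 20.9, 14.8 and 17.4 in CDX1 and 3.44, 2.56 and 3.39 in EHF+CDX1 libraries. For both genes the CDX1 libraries lay above all 9 others, the EHF+CDX1 libraries came next, and the EHF libraries lay between EV replicates 1 and 2 and EV replicate 3. Against EV cells, CXCL1 rose by 3.82 ± 0.60 (log2, SE) in CDX1 cells with adjusted p = 0.00027, and CXCL3 by 3.84 ± 0.54 with adjusted p = 0.000112. Without EV replicate 3 these were 6.06 ± 0.28 and 5.80 ± 0.28, with adjusted p = 2.44e-12 and 3.17e-12. In EHF+CDX1 against CDX1 cells, CXCL1 fell by 1.97 ± 0.54 on the log2 scale with adjusted p = 0.0196, and CXCL3 fell by 2.51 ± 0.50 with adjusted p = 0.00238. The fall of CXCL1 did not pass without CDX1 replicate 1, without EHF+CDX1 replicate 1 or without EHF+CDX1 replicate 3, with adjusted p = 0.0699, 0.05 and 0.0692. Their values against EV cells in EHF+CDX1 cells, 1.85 ± 0.58 for CXCL1 with adjusted p = 0.113 and 1.33 ± 0.53 for CXCL3 with adjusted p = 0.304, did not pass. They were 4.12 ± 0.32 and 3.28 ± 0.33, with adjusted p = 3.28e-08 and 1.62e-06 without EV replicate 3.

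CXCL2 (chr4:74097040-74099195) had few reads, between 6 and 227 per library. It stood at 0.474, 0.284 and 3.07 CPM in EV, 1.01, 0.756 and 0.875 in EHF, 4.97, 2.55 and 3.52 in CDX1 and 1.45, 2.68 and 2.0 in EHF+CDX1 libraries. EV replicate 3 thus lay within the CDX1 range, and the groups overlapped in each comparison with EV cells. The value for CDX1 against EV cells was 1.38 ± 0.61 with adjusted p = 0.137, and 3.26 ± 0.43 with adjusted p = 6.56e-06 without EV replicate 3. For EHF+CDX1 against EV cells it was 0.53 ± 0.62 with adjusted p = 1, and 2.41 ± 0.45 with adjusted p = 0.00183 without that library. The longest identical runs were 77 bases between transcripts of CXCL1 and CXCL2, 55 between CXCL1 and CXCL3 and 97 between CXCL2 and CXCL3 (GENCODE v44), which is shorter than the paired-end reads of the study. The authors kept uniquely mapped reads only, and whether reads of these 3 similar genes were lost or exchanged was not tested.

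CXCL8 (chr4:73740569-73743716) encodes interleukin-8, the main human neutrophil attractant, and took a different course. Its level was 0, 0 and 4.61 CPM in EV, 23.2, 22.4 and 24.3 in EHF, 7.14, 4.85 and 5.20 in CDX1 and 20.7, 19.9 and 21.4 in EHF+CDX1 libraries. Both EHF-carrying lines lay above every CDX1 library, and the EHF+CDX1 libraries lay just under the EHF libraries, without overlap. CXCL8 rose by 3.63 ± 0.83 in EHF against EV cells with adjusted p = 0.0189 and by 3.46 ± 0.83 in EHF+CDX1 against EV cells with adjusted p = 0.0205. The first call was lost without EHF replicate 3, with adjusted p = 0.0548, and the second without any 1 of the EHF+CDX1 libraries, with adjusted p from 0.0503 to 0.0551, while the log2 fold changes stayed between 3.45 and 3.63. The value for CDX1 against EV cells was 1.61 ± 0.81 with adjusted p = 0.173. Between EHF+CDX1 and EHF cells it was -0.17 ± 0.72 with adjusted p = 1, and between EHF+CDX1 and CDX1 cells 1.85 ± 0.75 with adjusted p = 0.0971, or 1.84 ± 0.12 with adjusted p = 7.42e-09 without EV replicate 3. No read of CXCL8 was counted in EV replicates 1 and 2, against 251 in EV replicate 3. Set against the level that 3 reads would give in EV replicates 1 and 2 (0.136 CPM on average), CXCL8 was at least 172-fold higher in EHF, at least 42.3-fold higher in CDX1, at least 152-fold higher in EHF+CDX1 cells and at least 34.0-fold higher in EV replicate 3 itself. These bounds cover counting error only, and reads without molecular identifiers are not independent molecules.

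CCL20 (chr2:227813842-227817556) encodes the ligand of CCR6, which draws dendritic cells and lymphocytes to the gut lining. It had the fewest reads of the 10 genes, with 0, 0 and 60 reads in EV and 11 to 20 reads in CDX1 libraries. In CPM it measured 0, 0 and 1.10 in EV, 0.692, 0.987 and 0.587 in EHF, 0.241, 0.278 and 0.515 in CDX1 and 3.65, 5.28 and 3.59 in EHF+CDX1 libraries. The 3 EHF+CDX1 libraries lay above the other 9, among which the EHF libraries lay above the CDX1 libraries and the EV libraries spanned both. CCL20 rose by 3.14 ± 0.79 in EHF+CDX1 against EV cells with adjusted p = 0.0288 and by 3.61 ± 0.81 against CDX1 cells with adjusted p = 0.00407. The call against EV cells was lost without any 1 of the EHF+CDX1 libraries, with log2 fold changes of 2.98 to 3.26 and adjusted p from 0.0561 to 0.0967. Against EHF cells the value was 2.47 ± 0.75 with adjusted p = 0.264, and 2.49 ± 0.29 with adjusted p = 4.21e-05 without EV replicate 3. Relative to the 3-read level in EV replicates 1 and 2, CCL20 was at least 30.8-fold higher in EHF+CDX1, at least 5.57-fold higher in EHF and at least 2.54-fold higher in CDX1 cells.

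NFKBIA (chr14:35401513-35404749) encodes IkB-alpha, the inhibitor that NF-kB itself induces and that returns the dimers to the cytoplasm. Its levels were 51.5, 55.1 and 67.4 CPM in EV, 50.7, 50.9 and 48.1 in EHF, 141, 126 and 93.2 in CDX1 and 59.7, 61 and 58.9 in EHF+CDX1 libraries. The CDX1 libraries stood above all others, while EV, EHF and EHF+CDX1 libraries lay within 48.1 to 67.4 CPM. NFKBIA rose by 1.05 ± 0.14 in CDX1 against EV cells with adjusted p = 0.0024, or by 1.17 ± 0.12 with adjusted p = 2.25e-05 without EV replicate 3, and fell by 1.0 ± 0.14 in EHF+CDX1 against CDX1 cells with adjusted p = 0.00465. Neither call was made under scaling by library size alone, with log2 fold changes of 0.71 and -0.64 and adjusted p = 0.114 and 0.252, or with limma on voom or deposited values, and over all alternatives the adjusted p ranged from 2.25e-05 to 0.224 and from 6.01e-05 to 0.498. Its value was -0.22 ± 0.14 in EHF and 0.04 ± 0.14 in EHF+CDX1 cells against EV cells, both with adjusted p = 1.

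TNFAIP3 (chr6:137866349-137883312) encodes A20, a ubiquitin-editing enzyme that shuts down signalling upstream of IKK. It was counted at 4.09, 4.83 and 15.2 CPM in EV, 10.1, 9.89 and 10.2 in EHF, 135, 99.2 and 71.7 in CDX1 and 21.9, 23.7 and 21.6 in EHF+CDX1 libraries. The CDX1 libraries stood highest and were widely spread, EHF+CDX1 libraries came next, and EHF libraries lay between the EV libraries. TNFAIP3 rose by 3.61 ± 0.42 in CDX1 against EV cells with adjusted p = 2.44e-05, or by 4.52 ± 0.22 with adjusted p = 6.33e-12 without EV replicate 3, and fell by 2.19 ± 0.39 in EHF+CDX1 against CDX1 cells with adjusted p = 0.00142. In EHF+CDX1 against EV cells it was 1.43 ± 0.39 with adjusted p = 0.0887, and 2.34 ± 0.23 with adjusted p = 2.23e-06 without EV replicate 3. The strand setting of the counting was not given, and the long non-coding gene WAKMAR2 overlaps the span of TNFAIP3. Only spans were compared and not exons, so whether reads of WAKMAR2 were counted for TNFAIP3 was not tested.

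BIRC3 (chr11:102317484-102339403) encodes cIAP2, a ubiquitin ligase that protects cells from TNF-induced death. It read 3.79, 4.26 and 12.7 CPM in EV, 15.1, 13.8 and 14.5 in EHF, 60.1, 55 and 34.0 in CDX1 and 25.0, 29.3 and 32.4 in EHF+CDX1 libraries. The 4 lines did not overlap and stood in the order EV, EHF, EHF+CDX1 and CDX1, although the lowest CDX1 and the highest EHF+CDX1 library nearly met. BIRC3 rose by 2.79 ± 0.39 in CDX1 against EV cells with adjusted p = 0.000135 and by 2.0 ± 0.38 in EHF+CDX1 against EV cells with adjusted p = 0.00869. These were 3.63 ± 0.22 and 2.83 ± 0.23, with adjusted p = 1.75e-10 and 7.64e-08, without EV replicate 3. It was the only gene of the 10 that rose both in CDX1 and in EHF+CDX1 cells against EV cells while EV replicate 3 was included. The value for EHF+CDX1 against CDX1 cells was -0.79 ± 0.36 with adjusted p = 0.261, or -0.80 ± 0.15 with adjusted p = 0.0493 without EV replicate 3.

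ICAM1 (chr19:10271120-10286615) encodes the surface receptor that holds leukocytes through beta-2 integrins. Its libraries gave 5.30, 6.86 and 13.4 CPM in EV, 2.29, 2.27 and 2.52 in EHF, 24.5, 22.9 and 24.3 in CDX1 and 7.53, 7.57 and 6.77 in EHF+CDX1 cells. EHF libraries lay below and CDX1 libraries above all others, and the EHF+CDX1 libraries fell inside the EV range. ICAM1 fell by 1.87 ± 0.28 in EHF against EV cells with adjusted p = 0.00244, or by 1.34 ± 0.14 with adjusted p = 6.71e-05 without EV replicate 3, and no other gene of the 10 fell in a line against EV cells. It rose by 1.46 ± 0.26 in CDX1 against EV cells with adjusted p = 0.00237, or by 1.98 ± 0.13 with adjusted p = 1.89e-09 without that library, and by 1.62 ± 0.28 in EHF+CDX1 against EHF cells with adjusted p = 0.0193, and it fell by 1.71 ± 0.26 in EHF+CDX1 against CDX1 cells with adjusted p = 0.000812. The rise against EHF cells did not pass without any 1 of the EHF libraries, EHF+CDX1 replicate 1 or EHF+CDX1 replicate 2, with log2 fold changes of 1.59 to 1.68 and adjusted p from 0.0704 to 0.0985. The long non-coding genes LIMASI and ICAM4-AS1 overlap its span, so the limit given for TNFAIP3 applies.

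RELB (chr19:45001464-45038192) encodes the subunit that pairs with p52 in the slower, non-canonical arm of the pathway. It was at 13.9, 12.3 and 40.7 CPM in EV, 29.0, 29.8 and 30.3 in EHF, 206, 202 and 159 in CDX1 and 34.0, 33.6 and 38.0 in EHF+CDX1 libraries. The CDX1 libraries stood far above the rest, whereas EHF and EHF+CDX1 libraries lay between EV replicates 1 and 2 on one side and EV replicate 3 on the other. RELB rose by 3.06 ± 0.37 in CDX1 against EV cells with adjusted p = 3.75e-05, or by 3.85 ± 0.12 with adjusted p = 7.48e-15 without EV replicate 3, and fell by 2.43 ± 0.36 in EHF+CDX1 against CDX1 cells with adjusted p = 0.000304. In EHF+CDX1 against EV cells it was 0.64 ± 0.35 with adjusted p = 0.851, and 1.41 ± 0.11 with adjusted p = 1.75e-06 without EV replicate 3.

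Counted over the 10 genes, 7 were induced and 0 repressed in CDX1 against EV cells, where 21.3% of all tested genes were induced and 23.3% repressed. All 10 were induced without EV replicate 3, against 26.2% of all genes, with CXCL8 and CCL20 among them, whose EV libraries then had no reads. The median log2 fold change of the 10 was 2.20, compared with -0.03 over all tested genes, and 3.74 without EV replicate 3 when CXCL8 and CCL20 were put at their lower bounds. Of the 0 repressed, none had an unadjusted p below 0.05 in edgeR, and limma voom and DESeq2 gave 0 as well.

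In EHF against EV cells, 1 gene was induced (CXCL8) and 1 repressed (ICAM1), against 5.68% induced and 2.65% repressed of all genes, and the median of the 10 was 0.33, compared with -0.04 over all genes. Without EV replicate 3, 7 were induced, CXCL8 and CXCL1, CXCL3, CCL20, TNFAIP3, BIRC3 and RELB, against 9.47% of all genes, while ICAM1 was repressed as before, against 3.6% of all genes, and the median, with CXCL8 and CCL20 at their bounds, was 1.51. Leaving it out took CXCL1 from 0.60 to 2.82, CXCL3 from 0.09 to 2.03, BIRC3 from 1.01 to 1.84, TNFAIP3 from 0.27 to 1.18 and RELB from 0.39 to 1.18 on the log2 scale. Without EHF replicate 3, 0 were induced, since CXCL8 was lost. EHF+CDX1 against EV cells had 3 induced (CXCL8, CCL20 and BIRC3) and 0 repressed, against 7.3% and 3.13% of all genes, with a median of 1.38, compared with -0.03. The induced genes numbered 8 without EV replicate 3, all but NFKBIA and ICAM1, against 11.2% of all genes, with 0 repressed, against 4.4%, and the median with CXCL8 and CCL20 at their bounds was 2.62. Without any 1 of the EHF+CDX1 libraries, 1 was induced, BIRC3. Of the 0 repressed, none had an unadjusted p below 0.05 in edgeR, and limma voom and DESeq2 gave 0 too. The 3 comparisons share the EV libraries, so EV replicate 3 moves all of them together.

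**Figure D2:**
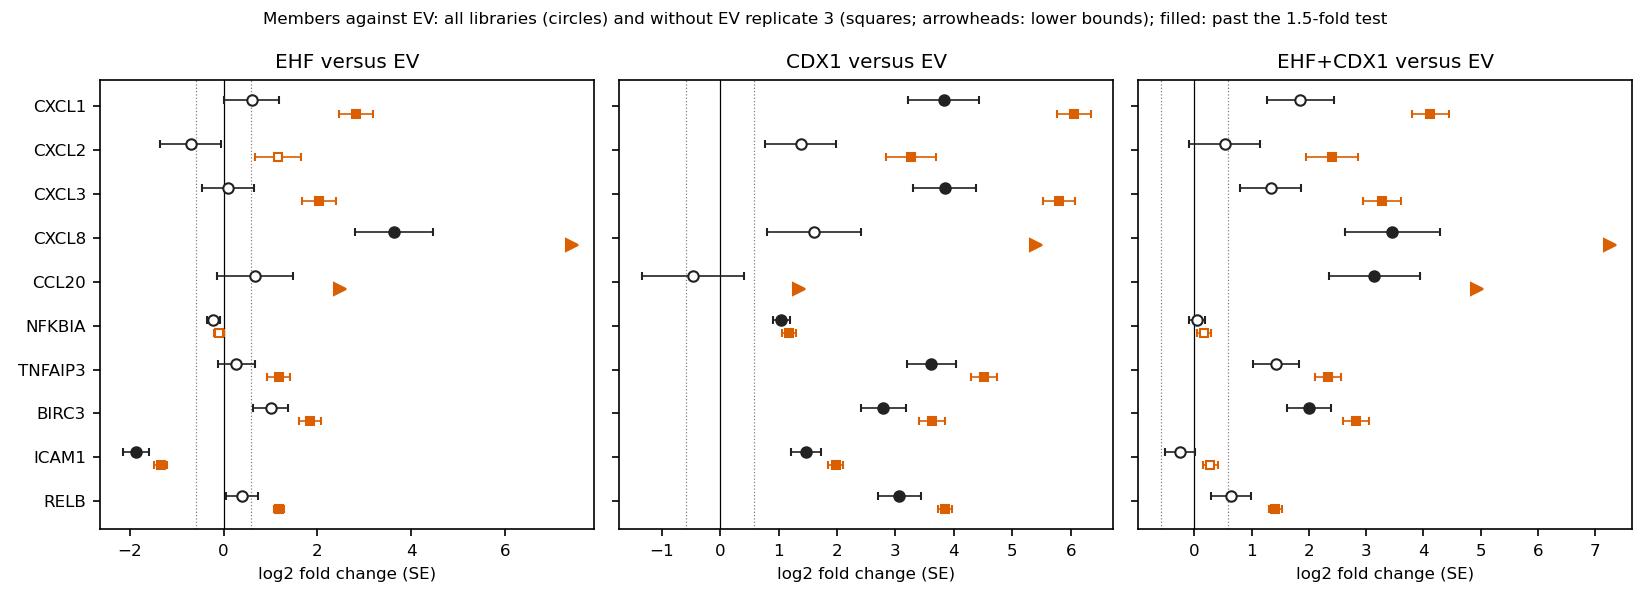
Log2 fold changes of the 10 genes (horizontal axes) in EHF, CDX1 and EHF+CDX1 cells against EV cells, with SE. Circles include all libraries and squares leave out EV replicate 3, arrowheads are lower bounds for CXCL8 and CCL20, filled symbols passed the test against a 1.5-fold change and dotted lines mark that fold. In CDX1 cells 7 circles are filled, and every square or arrowhead lies to the right of its circle in all 3 panels.

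Most of these genes were lower in EHF+CDX1 than in CDX1 cells, lines that differed in EHF and also in CDX1 itself (5419 against 525 CPM), so the effects of the factors cannot be told apart in this comparison. Against CDX1 cells, 6 were repressed in EHF+CDX1 cells, namely CXCL1, CXCL3, NFKBIA, TNFAIP3, ICAM1 and RELB, and 1 was induced, CCL20, against 18.7% repressed and 22.3% induced of all tested genes. The median of the 10 was -1.35, compared with 0.04 over all genes. Without EV replicate 3, which enters this comparison only through the shared estimate of the spread, 7 were repressed, with BIRC3 added, and 2 induced, with CXCL8 added, against 22.3% and 25.8% of all genes. CXCL8 was also added without EV replicate 1 or without EV replicate 2, which gave 2 induced each. Counted by libraries, 7 genes were lower in all EHF+CDX1 libraries than in any CDX1 library and 2 were higher, against 39.2% and 41.1% of all genes.

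Scaling bears on the comparisons with CDX1 cells, whose TMM factors were 0.799 to 0.845 against 0.973 to 1.09 in the other lines. Scaling by library size alone shifted the median of all genes by -0.340 in CDX1 against EV cells, by 0.356 in EHF+CDX1 against CDX1 cells and by 0.320 in the interaction. It turned the split of all induced and repressed genes from 3384 and 3691 to 2273 and 5115 in the first, from 3529 and 2970 to 5074 and 1765 in the second and from 3202 and 2853 to 4435 and 1970 in the interaction. Of the 10 genes, 6 were then induced in CDX1 against EV cells, with NFKBIA lost, and 5 were repressed, with NFKBIA lost, and 2 induced in EHF+CDX1 against CDX1 cells.

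Fewer calls were made where CDX1 joined EHF. Against EHF cells, 1 gene was induced (ICAM1) in EHF+CDX1 cells and 0 repressed, against 2.49% and 0.189% of all tested genes, while the median of the 10 was 1.20, compared with 0.00 over all genes. Of the 0 repressed, none had an unadjusted p below 0.05 in edgeR, and limma voom and DESeq2 gave 0. By libraries, 9 of the 10 were higher in every EHF+CDX1 library than in any EHF library, against 27.4% of all genes, and CXCL8 was lower in every one, against 28%. The induced genes numbered 6 without EV replicate 3, namely CXCL1, CXCL3, CCL20, TNFAIP3, BIRC3 and ICAM1, against 3.32% of all genes, with log2 fold changes between 0.99 for BIRC3 and 2.49 for CCL20. The values themselves hardly moved, as with CXCL1, which was 1.26 ± 0.56 with and 1.30 ± 0.17 without that library. Leaving out any 1 EHF library, EHF+CDX1 replicate 1 or EHF+CDX1 replicate 2 instead gave 0 induced.

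**Figure D3:**
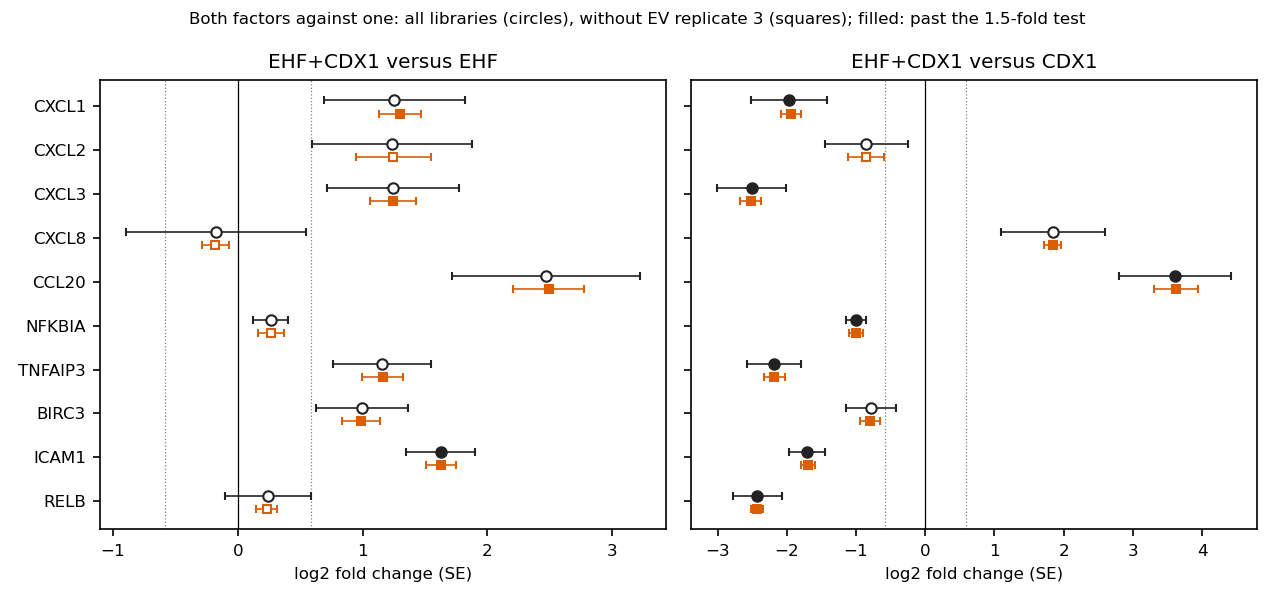
Log2 fold changes of the 10 genes (horizontal axes) in EHF+CDX1 cells against EHF cells (left) and against CDX1 cells (right), with SE. Circles include all libraries, squares leave out EV replicate 3 and filled symbols passed the test against a 1.5-fold change. On the right, 7 circles are filled, 6 to the left of 0 and CCL20 to the right, and the squares sit at almost the same values with shorter error lines.

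The interaction sets 2 changes against each other, EHF+CDX1 over CDX1 cells and EHF over EV cells, by taking the second log2 fold change from the first. The level of CDX1 also differed within the first of these pairs, as given above, so the value is not that of EHF alone. The step in EHF was unequal too, from 12.3 to 18708 CPM in the first pair and from 299 to 19312 CPM in the second. The interaction was negative and passed the test in 5 genes and positive in 0, against 18% and 20.2% of all tested genes. RELB had -2.82 ± 0.49 with adjusted p = 0.00112, CXCL3 -2.60 ± 0.74 with adjusted p = 0.0199 and CXCL1 -2.57 ± 0.80 with adjusted p = 0.0308. TNFAIP3 stood at -2.46 ± 0.55 with adjusted p = 0.00611 and BIRC3 at -1.79 ± 0.52 with adjusted p = 0.0298. CCL20 had the highest value, 2.94 ± 1.15, with adjusted p = 0.0734, and was the 1 gene of the 10 with a positive value at an unadjusted p below 0.05, while limma voom and DESeq2 called 0 positive. ICAM1 was at 0.16 ± 0.37 with adjusted p = 0.939, its log2 fold change being -1.87 in EHF over EV and -1.71 in EHF+CDX1 over CDX1 cells. Leaving out 1 library at a time moved the number of negative genes past the test to between 2, without CDX1 replicate 1, and 8, without EV replicate 3, with CXCL1 and BIRC3 lost most often. CCL20 passed as positive without EV replicate 1 or without EV replicate 2, at 3.42 and 3.39 with adjusted p = 0.0157 and 0.0195. Without EV replicate 3, the only EV library with reads of CCL20, its value was -4.29 with adjusted p = 0.126. That value depends on the prior count. Without EV replicate 3, 8 genes were negative past the test, against 24.3% of all genes, including CXCL8, for which EV cells then had no reads. RELB was then at -3.62, CXCL3 at -4.55, CXCL1 at -4.76, TNFAIP3 at -3.36 and BIRC3 at -2.64, while CXCL2 went from -0.15 to -2.01 and NFKBIA from -0.78 to -0.91.

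EV replicate 3 was the highest EV library for each of the 10 genes. Its level over the mean of EV replicates 1 and 2 was 10.3-fold for CXCL1, 8.10-fold for CXCL2, 8.07-fold for CXCL3, 3.41-fold for TNFAIP3, 3.16-fold for BIRC3, 3.11-fold for RELB, 2.21-fold for ICAM1 and 1.27-fold for NFKBIA. On the scale of log2(CPM + 0.5), where the median over all tested genes was 0.05, CXCL8 lay at 3.35, a value that 0.0378% of tested genes reached or passed, and CXCL1 at 2.33, which 0.296% reached. NFKBIA, at 0.34, was reached by 34.3% of genes. Of the 224 tested genes without a read in EV replicates 1 and 2, CXCL8 was the 1 gene with as many as 251 reads in EV replicate 3, and CCL20 was 1 of 2 with at least 60.

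**Figure D4:**
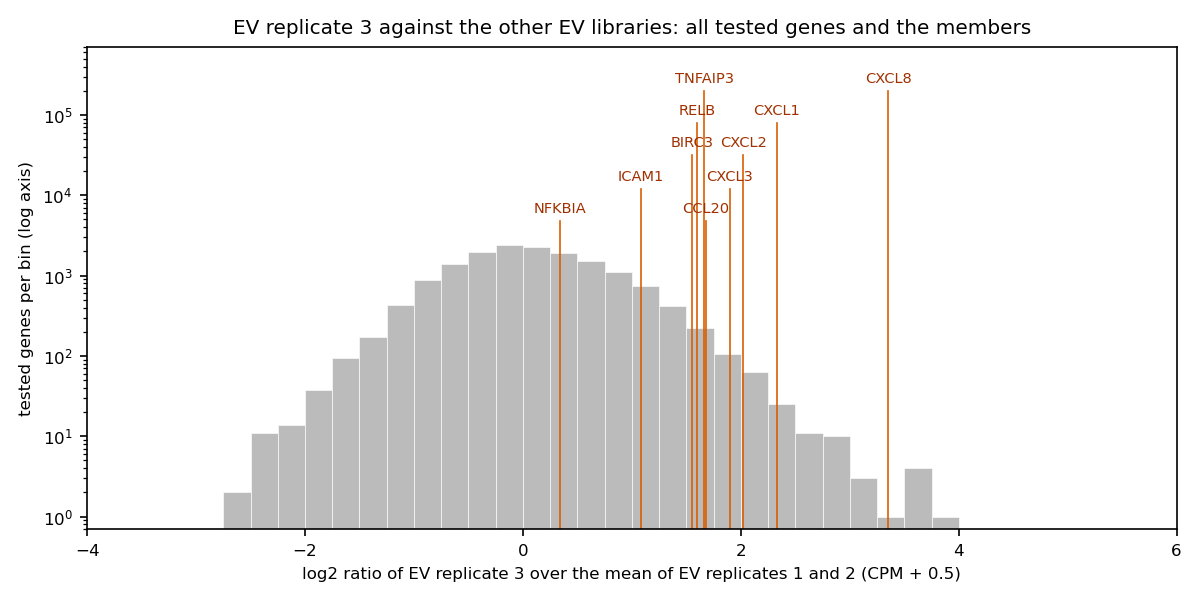
Distribution over the 15853 tested genes of the log2 ratio of EV replicate 3 over the mean of EV replicates 1 and 2 (horizontal axis, CPM + 0.5), with the number of genes per bin on a log axis. Vertical lines mark the 10 genes, and their heights only place the names. All 10 lie to the right of the median of 0.05, from NFKBIA at 0.34 to CXCL8 at 3.35.

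Levels of different genes can be compared per transcript length on the log2 RPKM scale that the authors deposited. In EHF cells, NFKBIA was highest at 5.05 ± 0.05 log2 RPKM (SD, n = 3), then CXCL8 at 3.75 ± 0.07 and RELB at 3.70 ± 0.03, which did not differ beyond their spread, and ICAM1 was lowest at -0.52 ± 0.08, with CXCL2 at -0.46 ± 0.19 within its spread. In CDX1 cells, RELB at 6.07 ± 0.16 and NFKBIA at 6.01 ± 0.24 led without separation, and CXCL1 at 4.45 ± 0.23, CXCL3 at 4.04 ± 0.22 and TNFAIP3 at 4.0 ± 0.38 followed with overlapping spreads. CXCL8 at 2.0 ± 0.30 and CXCL2 at 1.84 ± 0.52 came after ICAM1 and BIRC3 there, and CCL20 last at -1.05 ± 0.46. In EHF+CDX1 cells the order was NFKBIA at 5.32 ± 0.03, RELB at 3.95 ± 0.11 and CXCL8 at 3.56 ± 0.06, with CXCL1, CCL20, TNFAIP3 and BIRC3 close together between 2.03 and 2.27 and CXCL2 lowest at 0.52 ± 0.44. CXCL8 thus stood among the 3 highest genes of the 10 in both EHF-carrying lines. In EV replicates 1 and 2, NFKBIA was highest at 5.06 and 5.15, RELB next at 2.59 and 2.42 and ICAM1 after it at 0.77 and 1.12.

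**Figure D5:**
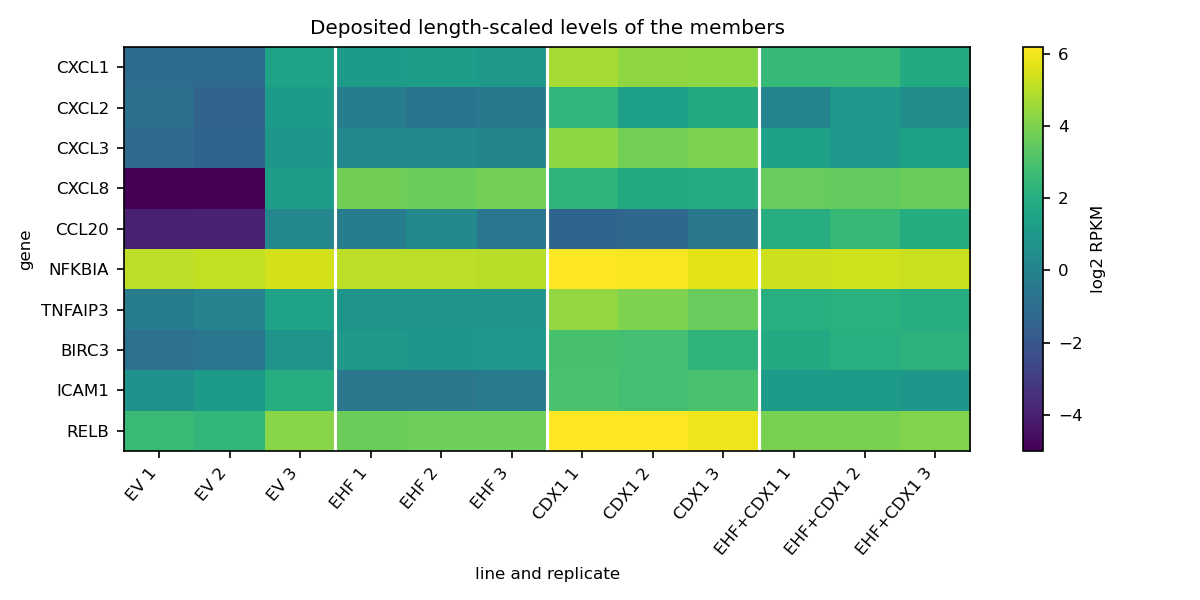
Deposited log2 RPKM (colour) of the 10 genes (rows) in the 12 libraries (columns, grouped by line). The darkest cells are CXCL8 and CCL20 in EV replicates 1 and 2, where no read was counted, and the brightest are NFKBIA and RELB in CDX1 libraries. EV replicate 3 is brighter than the other EV libraries in every row.

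Across the 12 libraries, Pearson correlations of log2 CPM within the set are a description, with libraries of a line counted as separate points, and they did not divide the genes into separate groups. CXCL1, CXCL3, TNFAIP3 and RELB had r from 0.93 to 0.98 with each other, and CXCL2 had 0.91 with CXCL1 and with CXCL3. BIRC3 had 0.97 with CXCL1 but 0.54 with ICAM1. CXCL8 had r = 0.86 with CCL20, 0.70 with BIRC3, 0.63 with CXCL1, 0.55 with CXCL2, 0.50 with CXCL3, 0.43 with TNFAIP3 and 0.38 with RELB, compared with 0.06 with NFKBIA and -0.14 with ICAM1. Among genes outside the set whose log2 CPM averaged 1 or more, COL12A1, STOM, MOSPD1, ADGRG1 and GAS6 were most like CXCL8, with r from 0.979 for GAS6 to 0.985 for COL12A1. The 5 most like NFKBIA were EOLA2, HES1, ABHD16B, RELT and CCNL1, with r from 0.978 to 0.981. All of these 10 were measured in the same libraries and share their depth and scaling.

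The rest of the pathway was read from 8 lists with 163 genes outside the set, of which 128 were tested. The counts below stand against 21.3% of all tested genes that rose and 23.3% that fell in CDX1 against EV cells, 22.3% and 18.7% in EHF+CDX1 against CDX1 cells, and 7.3% and 3.13% in EHF+CDX1 against EV cells. The first 2 of these comparisons share the CDX1 libraries. Among the 10 NF-kB subunits, IkB proteins and cofactors listed, 7 rose and 0 fell in CDX1 against EV cells, with a median log2 fold change of 1.38, and 7 fell and 0 rose in EHF+CDX1 against CDX1 cells, with a median of -1.15. Both counts were the same without EV replicate 3. The subunits other than RELB are given for completeness of the family, outside the naming rule. NFKB2, the precursor of p52, averaged 152 ± 69.7 CPM in EV, 208 ± 9.51 in EHF, 514 ± 56.4 in CDX1 and 213 ± 5.35 in EHF+CDX1 cells, and rose by 1.76 ± 0.24 in CDX1 against EV cells with adjusted p = 0.00027, or by 2.20 with adjusted p = 3.35e-13 without EV replicate 3. REL rose by 1.36 ± 0.16 with adjusted p = 0.000242, whereas RELA, at 0.63 ± 0.10 with adjusted p = 0.246, and NFKB1, at 0.62 ± 0.14 with adjusted p = 0.312, did not pass. NFKBIB, which encodes IkB-beta, was the 1 listed gene of this group that rose in EHF+CDX1 against EV cells, from 38.1 ± 9.68 to 78.1 ± 1.63 CPM. It rose by 1.04 ± 0.17 with adjusted p = 0.0238, a call that DESeq2 did not make. The median of the group in that comparison was 0.23.

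Of 14 negative regulators tested, 11 rose and 0 fell in CDX1 against EV cells, with a median of 1.55, and 9 fell and 0 rose in EHF+CDX1 against CDX1 cells, with a median of -1.23. IRAK3, a brake on receptor signalling named after its values were seen, reached the filter on low counts only through the CDX1 libraries, so its part in both counts followed from the filter. Leaving out EV replicate 3 gave 11 risen in the first and 10 fallen in the second comparison. Against EV cells 1 rose in EHF+CDX1 cells, PELI1, a ubiquitin ligase of the signalling chain, from 5.19 ± 0.39 to 17.3 ± 1.27 CPM, and the median was 0.18. Of 25 IKK, adaptor and kinase genes, 9 rose and 5 fell in CDX1 against EV cells, the second a share near that of all tested genes, or 11 and 5 without EV replicate 3, and 0 passed in EHF+CDX1 against EV cells in either direction. Of these, 3 rose and 2 fell there at an unadjusted p below 0.05, limma voom called 1 higher and 0 lower, and DESeq2 called 0.

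Among 25 receptors and sensors, 9 rose and 0 fell in EHF+CDX1 against EV cells. Of the 9, IL1R2, TLR4 and TNFRSF1B, named after their values were seen, reached the filter on low counts only through the EHF+CDX1 libraries, so their rise followed from the filter, and 6 of the other 22 rose. In CDX1 against EV cells 5 of the 25 rose and 6 fell, close to the 21.3% and 23.3% of all tested genes, or 8 and 6 without EV replicate 3. IFIH1, a sensor of double-stranded RNA, went from 5.24 ± 1.31 to 56.9 ± 2.67 CPM and RIGI, a sensor of the same kind, from 18.8 ± 0.99 to 59.9 ± 2.23 CPM. IL18R1, a subunit of the interleukin-18 receptor, went from 0.641 ± 0.484 to 2.24 ± 0.49 CPM. Of 15 inflammatory ligands tested, 7 rose and 0 fell in EHF+CDX1 against EV cells. IL33, TNFSF10 and TNFSF15, named after their values were seen, reached the filter only through the EHF+CDX1 libraries, which fixed their rise, and 4 of the other 12 rose. IL32 rose from 0.121 ± 0.141 to 13.4 ± 0.35 CPM, IL15 from 0.256 ± 0.074 to 1.84 ± 0.58 CPM and LIF from 76.4 ± 32.1 to 172 ± 7.53 CPM, with adjusted p = 4.7e-07, 0.000658 and 0.0417.

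Of the 22 other chemokines listed, 5 were tested, and the filter decided much of what they show. CXCL10, CXCL11 and CCL5 reached it only through the EHF+CDX1 libraries, so their calls as higher there than in EV cells followed from the filter. CCL22 reached it only through the EHF and EHF+CDX1 libraries, so the same holds for its rise. The same limit applies to any listed gene near 0 in EV cells, which could be tested only if it was higher in another line. These 4 are named after their values were seen because they lay under the level the naming rule asked for. CXCL10, which attracts T cells, had at most 1 read in each EV, EHF and CDX1 library and 12 to 46 reads in EHF+CDX1 libraries, and CXCL11 had at most 1 read in EV and 21 to 42 reads in EHF+CDX1 libraries. CCL22 was highest in EHF cells, at 2.12 ± 0.23 CPM, and lower in EHF+CDX1 cells, at 0.748 ± 0.131 CPM. Of 4 chemokine receptors and ICAM1 partners tested, 2 rose in EHF+CDX1 against EV cells, among them the integrin subunit ITGAM, from 0.696 ± 0.513 to 14.9 ± 0.86 CPM, a gene that also stands in the list of leukocyte markers given above.

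Among 30 other NF-kB target genes tested, 7 rose and 0 fell in EHF+CDX1 against EV cells, and 18 rose without EV replicate 3, against 11.2% of all genes. NOS2, named after its values were seen, reached the filter only through the EHF+CDX1 libraries. Of the 28 genes that did not depend on them 6 rose, or 17 without EV replicate 3. TNFRSF9, a costimulatory receptor, rose from 0.208 ± 0.257 to 2.93 ± 0.57 CPM, and PSMB9, a subunit of the immunoproteasome, from 1.58 ± 0.14 to 12 ± 0.97 CPM. In CDX1 against EV cells, 12 of the 30 rose and 3 fell, or 16 and 5 without EV replicate 3. BMP2, again named after its values were seen, reached the filter only through the CDX1 libraries, and 11 of the other 29 rose, or 15 without EV replicate 3. In every count of these lists given as 0, other than that of the IKK group, limma voom and DESeq2 called 0 too, and an unadjusted p below 0.05 was reached by 1 gene of the subunit group that was lower in CDX1 than in EV cells and by 1 of the other target genes that was lower in EHF+CDX1 than in EV cells. Of the rises in EHF+CDX1 against EV cells, limma voom and DESeq2 each called 6 receptors and sensors, not 9, and 5 other target genes, not 7. Of the 7 ligands they called 6 and 7. Genes that rose in EHF+CDX1 against EV cells without EV replicate 3 numbered 2 in the subunit group, 2 among negative regulators, 10 among receptors and sensors, 9 among inflammatory ligands and 6 in the IKK group, where 1 fell. The filter fixed part of the 10 and the 9. Among genes that did not depend on the EHF+CDX1 libraries, 7 of 22 receptors and sensors and 6 of 12 ligands rose. The genes named from the lists by the rule passed without EV replicate 3 too. For IL18R1, IL32, ITGAM and TNFRSF9 the fold itself moved by over 1.5 times. Their log2 fold changes went from 1.69 to 2.67, from 6.32 to 8.11, from 4.21 to 5.10 and from 3.46 to 5.42, in that order. IL32 and TNFRSF9 averaged 0.043 and 0.065 CPM in EV replicates 1 and 2, under the 0.136 CPM that 3 reads would give there. Their values without EV replicate 3 thus depend on the prior count. Scaling by library size alone left 7 risen and 1 fallen in the subunit group and 10 and 1 among negative regulators in CDX1 against EV cells, and 7 and 8 in the IKK group, whose median turned from 0.31 to -0.03, as did that of the receptors and sensors, from 0.13 to -0.20. Over all tested genes the medians were -0.03 in both comparisons with EV cells and 0.04 in EHF+CDX1 against CDX1 cells.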

How the data were processed

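Reads were aligned by the authors to GRCh38/hg38 with Subread 2.0.0 and uniquely mapped reads over RefSeq exons were counted with featureCounts 2.0.0 (versions per the labels), and the raw counts were deposited for 28395 genes and 12 libraries. The authors deposited log2 RPKM values too, made from the counts with a CPM filter, limma voom with quantile normalization and exon lengths. The strand setting is not given in the sources used here.

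Here edgeR 4.0.16 was run on these counts under R 4.3.3. A gene was kept where 3 or more libraries reached a CPM of 0.5, TMM factors were computed, and 1 quasi-likelihood fit over all 12 libraries took the lines as its 4 groups. Genes were called with glmTreat against a 1.5-fold change, with Benjamini-Hochberg adjustment over 15853 genes, and SEs are the log2 fold change over the root of the F statistic against no change. CPM are TMM-scaled. Promoters were read from a RefSeq table with Python 3.11.15. The steps were tested on simulated data. Alternatives used limma 3.58.1, DESeq2 1.42.0, other scalings, filters and fits, and left out each library.

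The 10 genes and the 8 lists were chosen with earlier results of these data known. Named beside the 10 are the 3 largest changes per list past the test in EHF+CDX1 against EV cells with log2 CPM averaging 0 or more, and the 5 genes most like CXCL8 and most like NFKBIA. A listed gene that met this rule is not reported here. Total counts of 13523007 to 74186741 set the precision.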

Additional observations from a re-analysis of the deposited data

Results flagged for a closer look

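For 5 of the 10 genes, the change from CDX1 to EHF+CDX1 cells differed from that between EV and EHF cells. The test was of the difference itself, the interaction term of the edgeR model, at the 1.5-fold threshold with 3 libraries per line. All 5 differences were negative, against 18% of all tested genes negative and 20.2% positive past this test. CDX1 was at 5419 CPM in EHF+CDX1 and 525 CPM in CDX1 cells, so the first change is not that of EHF alone. EHF itself went from 12.3 to 18708 CPM in the first change and from 299 to 19312 CPM in the second, so its steps were unequal. The difference, taken as the log2 fold change of EHF+CDX1 over CDX1 minus that of EHF over EV cells, was -2.57 for CXCL1, -2.60 for CXCL3, -2.46 for TNFAIP3, -1.79 for BIRC3 and -2.82 for RELB. In RELB, EHF+CDX1 cells were at 35.2 ± 2.45 CPM against 189 ± 26.1 in CDX1 cells, whereas EHF cells were at 29.7 ± 0.65 against 22.3 ± 15.9 in EV cells. In BIRC3 the corresponding means were 28.9 ± 3.69 against 49.7 ± 13.8 and 14.5 ± 0.66 against 6.93 ± 5.03 CPM. Without EV replicate 3 the differences were larger in size for all 5, at -4.76, -4.55, -3.36, -2.64 and -3.62 in the order given. Only 2 genes were negative past the test without CDX1 replicate 1, and 3 with DESeq2. CXCL1 and BIRC3 lost their calls most often when 1 library was left out.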

How the results depend on the processing

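Of 932 values of single genes recomputed under an alternative, 829 kept their direction and side of the threshold, 44 no longer passed, 42 came to pass and 17 reversed. In the counts that follow, numbers in parentheses are those over all 15853 tested genes under the same alternative. Counts of induced genes in EHF+CDX1 against EV cells were 1 (1005) with DESeq2 and 5 (2674) with the test against no change. They were 0 (851) when only the libraries compared were fitted, and 1 to 8 (1003 to 1770) when 1 library was left out. In EHF against EV cells they were 0 (743) with DESeq2 and 0 (618) with only the libraries compared, which also gave 0 (254) repressed. With 1 library left out they were 0 to 7 (720 to 1501). In EHF+CDX1 against EHF cells they were 7 (581) with only the libraries compared, 0 to 1 (304 to 342) with 1 of their own libraries left out and 6 (527) without EV replicate 3. In EHF+CDX1 against CDX1 cells, 2 were induced with library size alone (5074), with limma voom (2499), with the test against no change (5531) and with only the libraries compared (3946). With DESeq2, 0 (2867) were induced there. For the interaction, 1 was positive with library size alone (4435) and with the test against no change (4786), and 0 to 1 (2913 to 3704) with 1 library left out. Negative were 3 (2271) with DESeq2 and 2 to 8 (2573 to 3857) with 1 library left out.

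Signs reversed in values that did not pass the test in the fit of all libraries. When EV libraries were left out in turn, NFKBIA and ICAM1 in EHF+CDX1 against EV cells ranged from -0.034 to 0.17 and from -0.49 to 0.28, and in EHF against EV cells CXCL2 ranged from -1.13 to 1.16, CXCL3 from -0.29 to 2.03 and TNFAIP3 from -0.039 to 1.18. CCL20 in CDX1 against EV cells was 0.97 with limma voom, 1.52 with limma on the deposited log2 RPKM and -0.95 to 6.78 with 1 library left out, the last depending on the prior count. The interaction of CXCL2 was 0.13 with library size alone and -2.01 to 0.28 with 1 library left out, that of CCL20 -4.29, which again depends on the prior count, to 3.42, and that of ICAM1 -0.088 on the deposited log2 RPKM and -0.35 to 0.41 with 1 library left out. The cause was not tested.

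Replicate numbers are shared by the lines, and the labels do not say whether they pair the libraries. Deviations of same-numbered libraries correlated at -0.0653 to 0.0802 over 18 pairs, against -0.106 to 0.0897 over 36 other pairs. With 3 libraries per line this cannot show whether libraries were paired. With a replicate block, 7 of the 10 genes were induced in CDX1 against EV cells and 6 repressed in EHF+CDX1 against CDX1 cells. Over all 15853 tested genes these were 3389 and 2938. The counts of the 10 genes equalled those without the block in all 6 comparisons. CXCL2 and CCL20 were limited by depth, with 6 to 227 and 0 to 278 reads per library.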
